A study of Mus musculus with 2 samples.

Results

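The genes described here are 37 genes for lysosomal proteins, chosen by symbol from a named list and not by their measured values, of 55536 annotated genes in the tables. They comprise 10 genes for proteases, 6 for proteins that handle lipids, 7 for glycosidases, the progranulin gene Grn, 4 for membrane proteins, 7 for the proton pump and 2 for the transcription factors Tfeb and Tfe3. All 37 symbols were found, each as 1 gene.

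Total RNA was sequenced after ribosomal RNA depletion from mouse bone marrow-derived macrophages, primary phagocytes grown from the marrow of the C57BL/6J strain. Both libraries came from cells given Lipid A, the lipid anchor of bacterial lipopolysaccharide and a ligand of the receptor TLR4, at 100 ng/ml for 30 min. The RNA was that of the nucleoplasm according to the sample descriptions, and of the nucleus according to other labels, with 1 µg of starting RNA for replicate 1 and 500 ng for replicate 2. The replicates are called biological, cite the same donor entry, and have no age or sex recorded. Nothing in the labels states that 2 separate cultures were grown, and the difference between the libraries may then be technical in part or whole. Unstimulated cells were not analysed here, so the values below are levels after Lipid A and hold no response to it.

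The lysosome is the acidic compartment in which cells digest material taken up by phagocytosis or delivered by autophagy, and macrophages are known for a large lysosomal system. Its hydrolases work at low pH, which a vacuolar-type ATPase keeps up by pumping protons across the lysosomal membrane. Many of these genes are known targets of TFEB and TFE3, transcription factors that bind a palindromic promoter word, the CLEAR element, and enter the nucleus when mTORC1 is inactive.

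The libraries held 16037242 expected counts in replicate 1 and 14906686 in replicate 2, and mitochondrial genes took 2.16% and 6.13% of them. All 8 macrophage markers were detected, at a TPM (a level scaled for transcript length and library depth) of at least 1 in both libraries, and their summed level was 3025 and 3706 TPM. The difference of Lyz2 alone, with 1465 and 2295 TPM, was larger than that of the sum. Lyz2 and Cd68 had the higher TPM in replicate 2, and the other 6 had the lower. Of the markers of other cells, 1 of 8 osteoclast, 1 of 8 neutrophil, 1 of 6 erythroid, 0 of 6 dendritic cell, 0 of 5 B cell, 0 of 6 T cell and 0 of 6 fibroblast genes were detected. In bulk RNA, fewer cells of a type and less RNA per cell cannot be told apart.

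The promoters of several members hold the CLEAR word, which is shown because it names the binding site of the 2 factors in the list. RefSeq promoter windows (build GRCm38.p6, 300 bases, from 250 before the start to 50 after it) were matched by symbol for 30 of the 37 members. The 8 letters TCACGTGA read the same on both strands and contain the shorter word CACGTG. TCACGTGA was found in the windows of 6 of the 30 members (20%), Ctsd, Ctsa, Atp6v1a, Mcoln1, Gla and Atp6v0d1, against 1.12% of all 27025 genes with a window. CACGTG was found in those 6 and in Lamp1, Glb1, Gaa, Lgmn and Ctsl, 11 of 30 members (36.7%), against 8.09% of all genes. Per window, the shares over all 32851 windows were 0.974% and 7.15%. A match is a match of letters and shows no binding. In the stretches below, written on the strand of the gene, the capitals mark TCACGTGA and the small letters are the 11 bases on either side. The stretches of Ctsd, Ctsa, Atp6v1a and Mcoln1 lie inside the annotated spans of their genes, and those of Gla and Atp6v0d1 lie outside. Positions are relative to the RefSeq start used here. The labels of the Ctsa stretches, farther and nearer, mean only that the word lies before or after that start.
Ctsd: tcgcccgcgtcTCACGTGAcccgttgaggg
Ctsa, farther from the gene body: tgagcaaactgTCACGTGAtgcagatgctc
Ctsa, nearer to the gene body: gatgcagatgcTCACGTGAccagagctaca
Atp6v1a: ttttttttaaaTCACGTGAtaggcttaacg
Mcoln1: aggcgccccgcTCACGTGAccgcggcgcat
Gla, nearer to the gene body: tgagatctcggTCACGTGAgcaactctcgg
Gla, farther from the gene body: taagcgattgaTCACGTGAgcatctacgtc
Atp6v0d1: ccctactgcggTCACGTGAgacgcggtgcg

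The Ctsd stretch lies at chr7:142387908-142387937 on the minus strand, with the first letter of the word at position -99 relative to the start. The Ctsa stretches lie at chr2:164833749-164833778 and chr2:164833766-164833795 on the plus strand, with the word at -13 and at 5, so that one copy sits on either side of the start. The Atp6v1a stretch lies at chr16:44139373-44139402 on the minus strand (word at -132), and the Mcoln1 stretch at chr8:3500462-3500491 on the plus strand (word at -46). The Gla stretches lie at chrX:134601182-134601211 and chrX:134601215-134601244 on the minus strand (word at -195 and -228), and the Atp6v0d1 stretch at chr8:105566050-105566079 on the minus strand (word at -4). The members with TCACGTGA differed widely in level, from Ctsd at 1417 TPM to Atp6v0d1 at 33.5 TPM, as means of the libraries. Their log2 ratios between the libraries, described further on, spanned 0.83 for Ctsd to -0.24 for Atp6v0d1.

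All 37 members were detected in both libraries, where 42.4% of the 22028 protein-coding genes were. The median of the members' mean levels was 127 TPM, against 8.0 TPM for the 9783 protein-coding genes at a mean of at least 1 TPM. Among protein-coding genes ranked by level, 9 members were within the highest 100 and 22 within the highest 500. Together the members held 456977 expected counts in replicate 1, which is 2.85% of the library (95% Wilson interval 2.84 to 2.86), and 650814 in replicate 2, which is 4.37% (4.36 to 4.38). These intervals cover counting error only, and the shares differed between the libraries by far more than that. Of the members' counts, 62.1% and 67.4% belonged to the 3 highest genes, Psap, Ctsb and Ctsd.

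**Figure D1:**
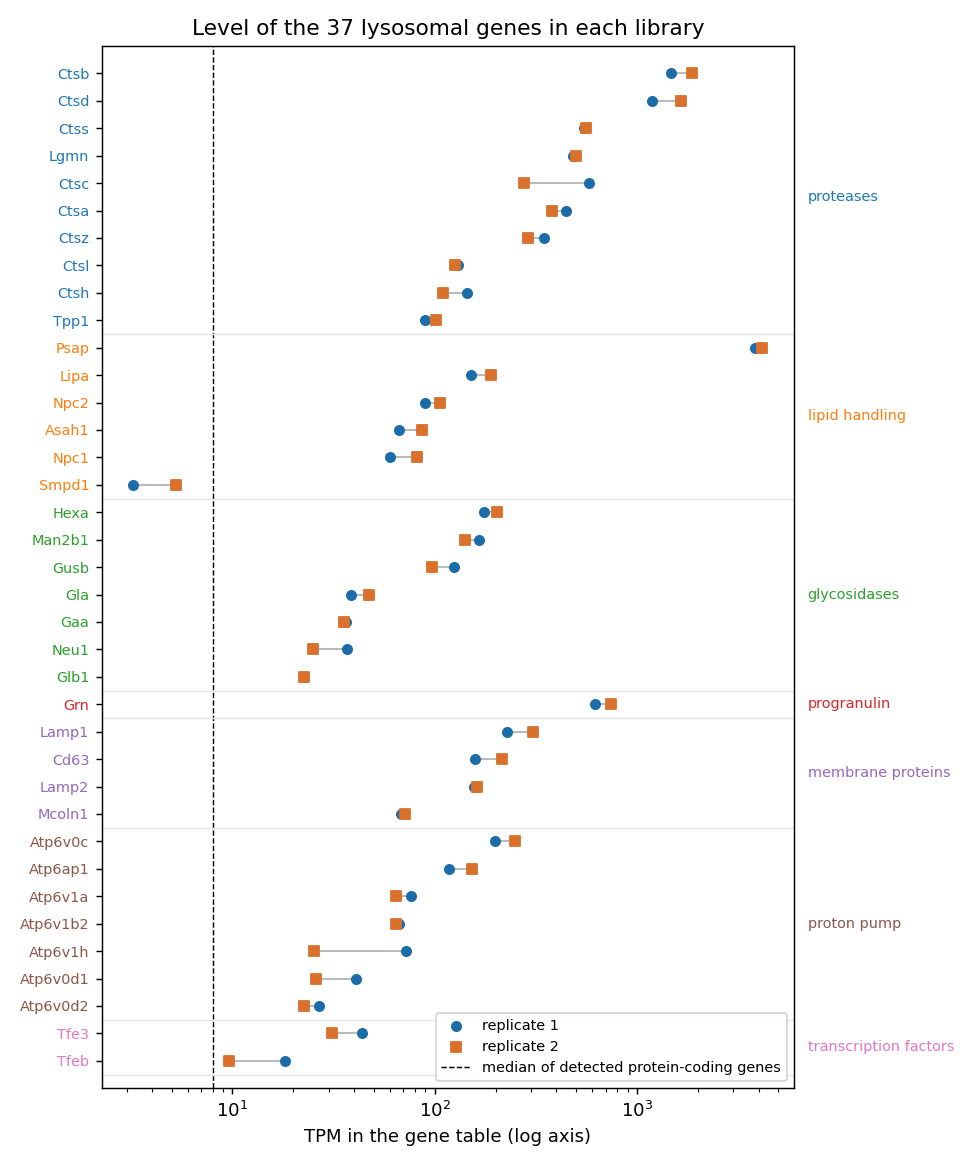
Level of each of the 37 genes in the gene tables, in TPM on a log axis, with circles for replicate 1, squares for replicate 2 and genes grouped by role. Psap stands at 3832 and 4169 TPM, and every gene but Smpd1 (3.24 and 5.24 TPM) lies to the right of the dashed median of detected protein-coding genes (8.0 TPM) in both libraries.

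Protease genes had the highest median of the roles with more than 1 gene, 419 TPM over 10 members, with 95.3 TPM for the lowest. Ctsb, which encodes the cysteine protease cathepsin B, had 1476 TPM in replicate 1 and 1867 TPM in replicate 2, and ranked 11 of 22028 protein-coding genes (ENSMUSG00000021939.8, chr14:63122462-63145923). Ctsd, which encodes the aspartic protease cathepsin D, had 1188 and 1646 TPM (ENSMUSG00000007891.16, chr7:142375911-142388038). Both were higher in replicate 2. Ctss, for cathepsin S, a protease known for trimming the invariant chain of MHC class II, had 548 and 562 TPM, and Lgmn, for the asparaginyl endopeptidase legumain, had 485 and 502 TPM. The levels of Ctss and Lgmn each differed little between the libraries, and the lower Ctss value lay above the higher Lgmn value. Ctsc, for cathepsin C, which activates serine proteases of immune cells, went the other way with 578 and 275 TPM. Ctsa, for the protective protein cathepsin A, had 444 and 381 TPM, and Ctsz, for the carboxypeptidase cathepsin Z, had 346 and 289 TPM. Ctsa was thus above Ctsz in both libraries, while the wide pair of Ctsc values took in both Ctsz values and both Ctsa values. The other 3 proteases, Ctsl (130 and 126 TPM), Ctsh (144 and 109 TPM) and Tpp1 (89.4 and 101 TPM), overlapped in level between Ctsl and Ctsh. Tpp1 encodes a tripeptidyl peptidase, and its 2 values lay below both values of the other protease genes.

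Genes of lipid handling ranged from the highest member to the lowest. Psap encodes prosaposin, the precursor of the saposins that help hydrolases reach their sphingolipid substrates. It had 156873 counts in replicate 1 and 208882 in replicate 2, at 3832 and 4169 TPM (4001 ± 238, SD, n = 2), and ranked 4 of all protein-coding genes (ENSMUSG00000004207.14, chr10:60277627-60302597, GRCm38 as for all coordinates here). Smpd1, for acid sphingomyelinase, had 121 and 241 counts, at 3.24 and 5.24 TPM, and was the only member below the median of detected protein-coding genes (ENSMUSG00000037049.9, chr7:105554360-105558389). Lipa, for lysosomal acid lipase, had 151 and 190 TPM, and Asah1, for acid ceramidase, had 66.5 and 87.0 TPM. The cholesterol carriers of the Niemann-Pick type C pathway stood near each other, with Npc2 at 89.9 and 106 TPM and the membrane protein gene Npc1 at 60.4 and 82.0 TPM. Npc2 was above Npc1 in both libraries, and all 6 lipid genes had their higher TPM in replicate 2.

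Glycosidase genes were lower, at a median of 42.95 TPM over 7 genes. Hexa, for the alpha subunit of beta-hexosaminidase, was the highest at 175 and 203 TPM. Man2b1, for lysosomal alpha-mannosidase, followed at 165 and 142 TPM, and Gusb, for beta-glucuronidase, had 124 and 97.2 TPM. These 3 did not overlap with the remaining 4 glycosidases. Gla, for alpha-galactosidase A, had 38.4 and 47.5 TPM, and Gaa, for acid alpha-glucosidase, had 36.4 and 35.4 TPM. Neu1, for the sialidase that is protected by cathepsin A, had 36.7 and 25.1 TPM, and Glb1, for beta-galactosidase, which sits in the same complex, had 22.6 and 22.5 TPM. The values of Gaa and Neu1 overlapped, and both Glb1 values lay below those of the other 6. Cathepsin A, sialidase and beta-galactosidase form 1 complex in the lysosome, and in nuclear RNA the gene for cathepsin A stood above the genes for the other two in both libraries.

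Grn, which encodes progranulin, a secreted and lysosomal glycoprotein cut into granulins, had 618 and 744 TPM and ranked 32. Among genes for membrane proteins, Lamp1 had 227 and 307 TPM and Lamp2 had 156 and 162 TPM. The proteins of both are heavily glycosylated and line the inner face of the lysosomal membrane, and Lamp1 was above Lamp2 in both libraries. Cd63, for a tetraspanin of late endosomes, had 158 and 216 TPM, and its range took in the upper Lamp2 value. Mcoln1, for the calcium channel TRPML1, was the lowest of these 4 at 67.8 and 71.2 TPM.

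The 7 genes of the proton pump ranged from 24.8 to 223 TPM as means. Atp6v0c, for the proteolipid that forms the proton-carrying ring in the membrane, was the highest at 198.5 and 248 TPM. Atp6ap1, for an accessory subunit of the pump, had 118 and 152 TPM. The catalytic head is built from A and B subunits, and their genes stood close, with Atp6v1a at 76.3 and 64.5 TPM and Atp6v1b2 at 66.3 and 64.2 TPM. Their ranges overlapped. Atp6v1h, for the regulatory subunit H, had 72.1 TPM in replicate 1 and 25.2 TPM in replicate 2, the widest TPM ratio among the members (ENSMUSG00000033793.12, chr1:5070018-5162529). The d subunit joins the membrane ring to the stalk and comes in 2 forms, one broad and one known from osteoclasts, kidney and macrophages. Atp6v0d1, the broad form, had 847 and 687 counts at 40.9 and 26.03 TPM. Atp6v0d2, the restricted form, had 1048 and 1102 counts at 26.9 and 22.6 TPM. On the TPM scale Atp6v0d1 was above Atp6v0d2 within each library. Across the libraries, the lower Atp6v0d1 value lay below the higher Atp6v0d2 value. In the second transcript tables, derived from the read files per the deposited text files, Atp6v0d1 had 34.6 and 17.1 TPM and Atp6v0d2 had 14.7 and 11.4 TPM, without overlap. Of the 8 osteoclast markers only Nfatc1 was detected in both libraries (11.9 and 11.2 TPM). Acp5 had 4.87 TPM in replicate 1 and 0.63 TPM in replicate 2, and Ctsk had 2.05 and 0.99 TPM. Dcstamp had 0.33 and 0.40 TPM, Mmp9 had 0.24 TPM in each, and Ocstamp, Calcr and Oscar were at 0 in both gene tables. The second tables gave Ocstamp 430 and 447 estimated counts, so the tables differ on this marker, and gave Calcr 0 in both and Oscar 1 and 0. The summed level of the 8 was 19.4 and 13.5 TPM.

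The transcription factor genes were among the low members. Tfe3 had 43.8 and 31.0 TPM, and Tfeb had 18.2 and 9.63 TPM. The 2 genes did not overlap, Tfe3 being above Tfeb in each library, and both were lower in replicate 2.

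Set side by side, the libraries differed for the members mostly in 1 direction. After TMM scaling of the expected counts, which sets the bulk of genes equal, the median log2 ratio of replicate 2 over replicate 1 was 0.41 over the 37 members, against -0.03 over the 10448 annotated genes whose counts averaged 50 or more. The ratio was above 0 for 31 members and below 0 for 6, where 47.6% of all genes were above 0. Such a ratio compares these 2 libraries of 1 group and has no test. The middle 50% of all genes lay between -0.39 and 0.37, the 25th and 75th percentiles. Of the members, 20 lay above the upper of these bounds and 3 below the lower.

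Few members differed by more than 2-fold. Only Smpd1 was more than 2-fold higher in replicate 2 (1 of 37 members), where 5.22% of all genes were, and 0 members were more than 2-fold lower, where 3.8% of all genes were. At 1.5-fold, 14 members (37.8%) were higher, against a background of 15.7%, and 1 (2.7%) was lower, against a background of 14.1%. With so few members past 2-fold, those counts are near the background. At 1.5-fold the share was above the background for higher and below it for lower.

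**Figure D2:**
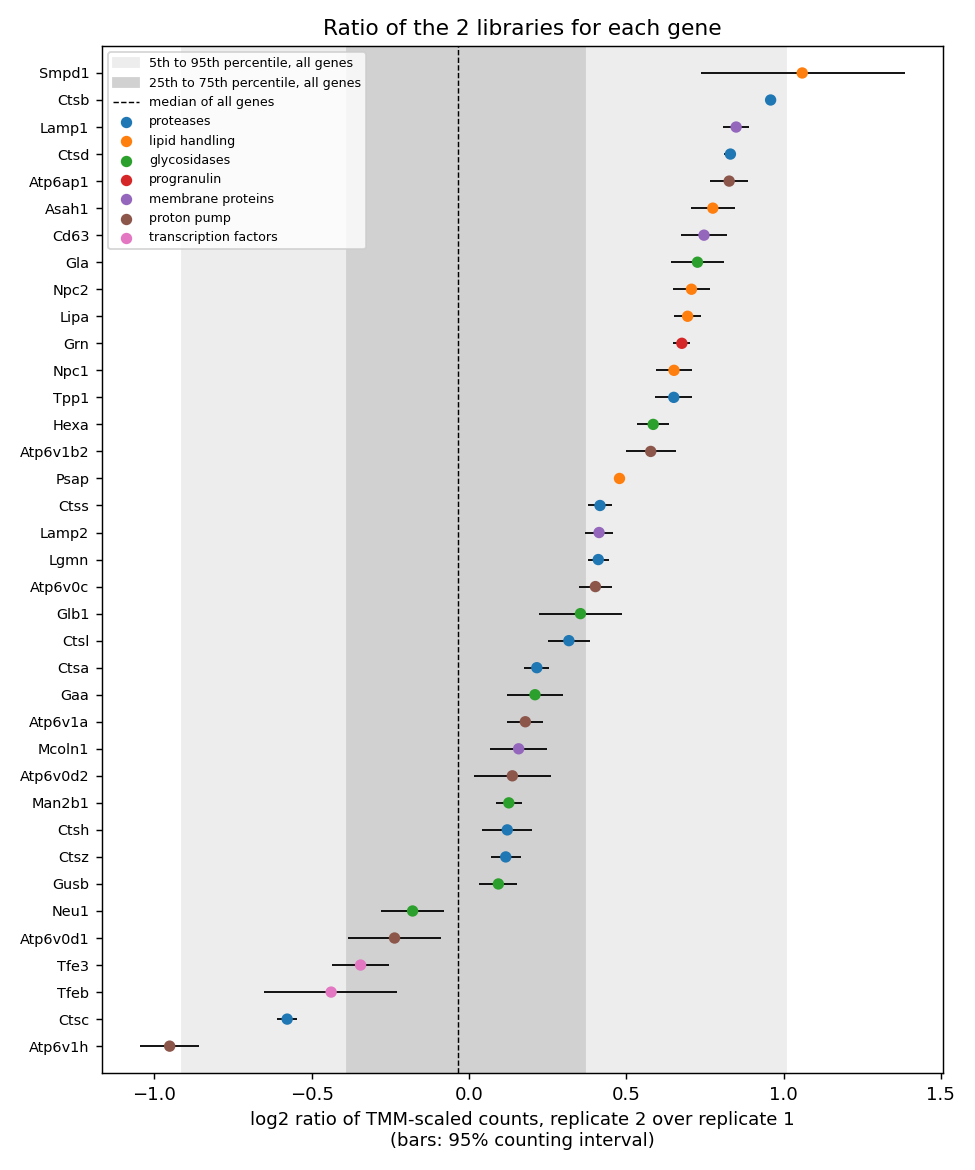
Log2 ratio of TMM-scaled counts, replicate 2 over replicate 1, for each member, with bars for the 95% counting interval and grey bands for the percentiles of all genes that averaged 50 counts or more. Smpd1 (1.06) lies past the 95th percentile of all genes (1.01) and Atp6v1h (-0.95) past the 5th (-0.91), and the other 35 lie within that band.

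Smpd1 had 121 and 241 counts, a log2 ratio of 1.06 with a 95% counting interval of 0.74 to 1.39. The interval reaches well under 2-fold. Ctsb had 90785 and 168658 counts, a log2 ratio of 0.96. Lamp1 had 7387 and 12719 counts (0.85), and Ctsd had 36063 and 61316 counts (0.83). Atp6ap1, with 3437 and 5828 counts (0.83), completed the 5 most positive ratios. These 5 genes come from 4 of the 7 roles. At the other end, Atp6v1h had 2829 and 1398 counts, a log2 ratio of -0.95 (interval -1.05 to -0.86). Ctsc had 19278 and 12342 counts (-0.58), and Tfeb had 448 and 316 counts (-0.44). Tfe3, with 2292 and 1725 counts (-0.34), and Atp6v0d1, with 847 and 687 counts (-0.24), followed, and Neu1 (-0.18) was the last member below 0. With TMM scaling the counting interval left out 0 for all 37 members, which says only that counting error alone is smaller than these differences. The lower ends came near 0 for Atp6v0d2 (0.014), Gusb (0.033) and Ctsh (0.042). DESeq2 size factors from all genes lower every ratio by more than these margins, which would bring 0 inside.

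By role, the median log2 ratio was 0.70 for the 6 lipid genes, with all of them above 0, and 0.58 for the 4 membrane protein genes, again all above 0. Grn stood at 0.68. The 10 proteases had a median of 0.36, with Ctsc below 0, and the 7 glycosidases one of 0.21, with Neu1 below 0. The 7 pump genes had a median of 0.18 and ran from -0.95 for Atp6v1h to 0.83 for Atp6ap1. Both transcription factor genes were below 0. These directions depend on the scale for some genes. On the TPM scale the median of all genes itself was -0.44 and that of the members 0.05, and 11 members changed sign, namely Atp6v0d2, Atp6v1a, Atp6v1b2, Ctsa, Ctsh, Ctsl, Ctsz, Gaa, Glb1, Gusb and Man2b1. Relative to the median of all genes, 31 of the 37 members were higher in replicate 2 in the scaled counts, on the TPM scale and in the second transcript tables. Another count scaling shifts all genes alike and cannot change that number. The mitochondrial share also was higher in replicate 2 (6.13% against 2.16%). Of the 8 macrophage markers, 6 had a scaled log2 ratio above 0, with a median of 0.23, although 6 had a lower TPM in replicate 2. The part of either in the members' ratios was not tested.

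Gene length went with the ratio among protein-coding genes. Over 9006 protein-coding genes that averaged 50 counts or more, Spearman's rho between the log2 ratio and the genomic span was -0.32, and over the 37 members it was -0.25. The members' median span was 18.6 kb, against 27.2 kb for those protein-coding genes. The points share both libraries, and the part of length in the members' ratios was not tested. Atp6v1h has the longest span of the members, 92512 bp, and the lowest ratio, while Smpd1 has the shortest, 4030 bp, and the highest. The members next to them in span went the other way, with Glb1 (73823 bp) at 0.35 and Neu1 (4701 bp) at -0.18.

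Nuclear RNA contains transcripts that still hold introns, and 28 members have at least 1 annotated retained-intron transcript. The median share of a gene's TPM in such transcripts was 15.5% over these 28 members (mean of the libraries), against 25.2% over 6215 protein-coding genes with such a transcript and at a mean of at least 1 TPM. The highest shares were those of Atp6v1h, with 63.6% in replicate 1 and 62.7% in replicate 2, and Tfe3, with 63.8% and 49.0%. Neu1 had 53.2% and 54.5%, Tpp1 had 52.4% and 37.1%, and Ctsa had 47.8% and 35.7%. These 5 come from 4 roles. Cd63 (3.88% and 0.81%), Lipa (2.14% and 1.37%) and Ctsd (1.86% and 0.38%) were at the low end, together with Smpd1 at 0% and 1.53%.

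**Figure D3:**
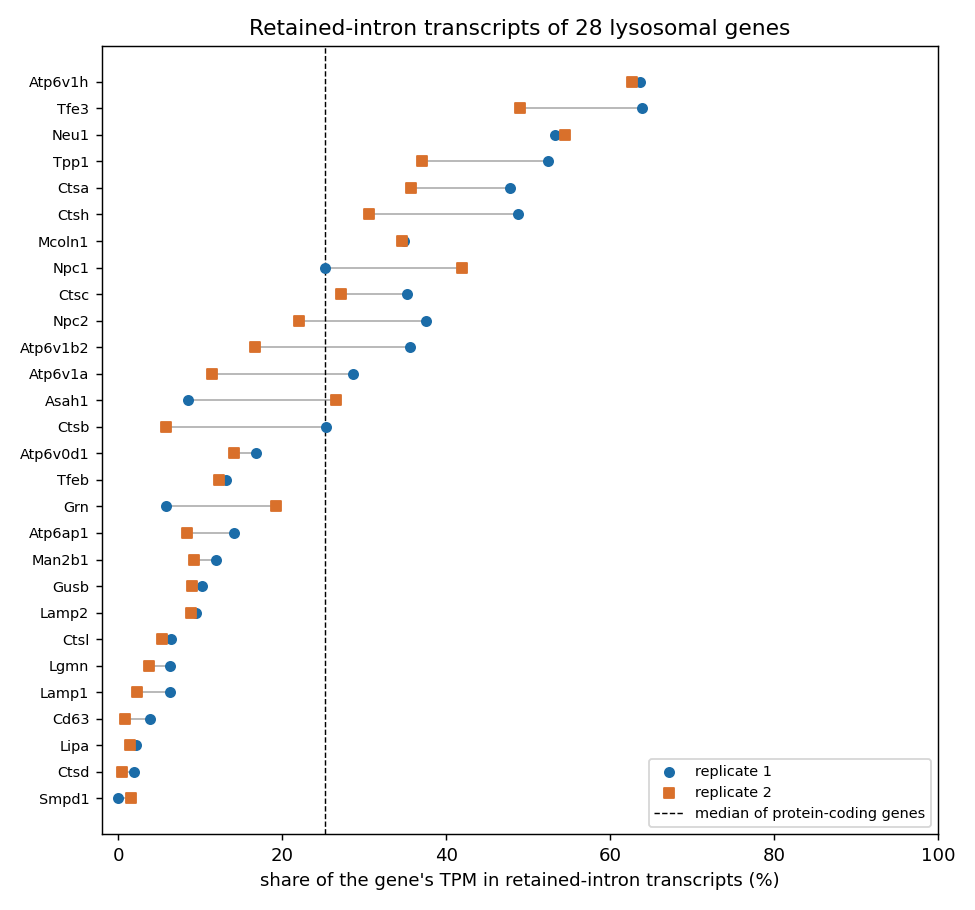
Percent of the TPM of each gene that lies in retained-intron transcripts, for the 28 members that have such a transcript, with circles for replicate 1 and squares for replicate 2. Atp6v1h (63.6% and 62.7%) is at the top, and 23 of the 28 squares lie to the left of their circle.

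The share was lower in replicate 2 for 23 of the 28 members (82.1%), against 53.0% of the 6215 protein-coding genes. Ctsb was one of the 23, with 25.3% in replicate 1 and 5.75% in replicate 2. The larger of its retained-intron transcripts in the first tables, Ctsb-203, had 4352 counts in replicate 1 and 1658 in replicate 2. The coding transcript Ctsb-201 had 85174 and 166593. In the second transcript tables the share of Ctsb was larger, at 46.9% and 24.0%, and again lower in replicate 2. The larger retained-intron transcript there was Ctsb-202, with 7241 and 8808 estimated counts, against 4773 and 2497 for Ctsb-203. Atp6v1b2 had 35.6% and 16.7%, and Atp6v1a had 28.6% and 11.4%. The reverse was seen for Npc1 (25.1% and 41.9%), Asah1 (8.46% and 26.5%), Grn (5.81% and 19.3%), Neu1 and Smpd1. In the second tables Npc1, Asah1, Grn and Smpd1 were again higher in replicate 2, but Neu1 was lower (71.2% and 64.8%). Atp6v1h (48.2% and 54.3%) and Tfeb (11.4% and 16.3%), which are among the 23, were higher in replicate 2 there. For Npc1 most of the difference was in 1 transcript, Npc1-206, with 19.1% and 39.0% of the gene's TPM, or 394 and 1343 counts.

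Members with a larger retained-intron share tended to have a lower ratio of replicate 2 over replicate 1. Spearman's rho between the 2 measures was -0.55 over the 28 members and -0.25 over 5834 protein-coding genes. Both measures come from the same reads and the points share both libraries, so the values are a description. The members with the 3 largest shares, Atp6v1h, Tfe3 and Neu1, all had ratios below 0. Tpp1, Ctsa and Ctsh, which came next by share, had ratios above 0 (0.65, 0.22 and 0.12). In the second transcript tables the mean share of Tpp1 (55.1%) was larger than that of Atp6v1h (51.2%).

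**Figure D4:**
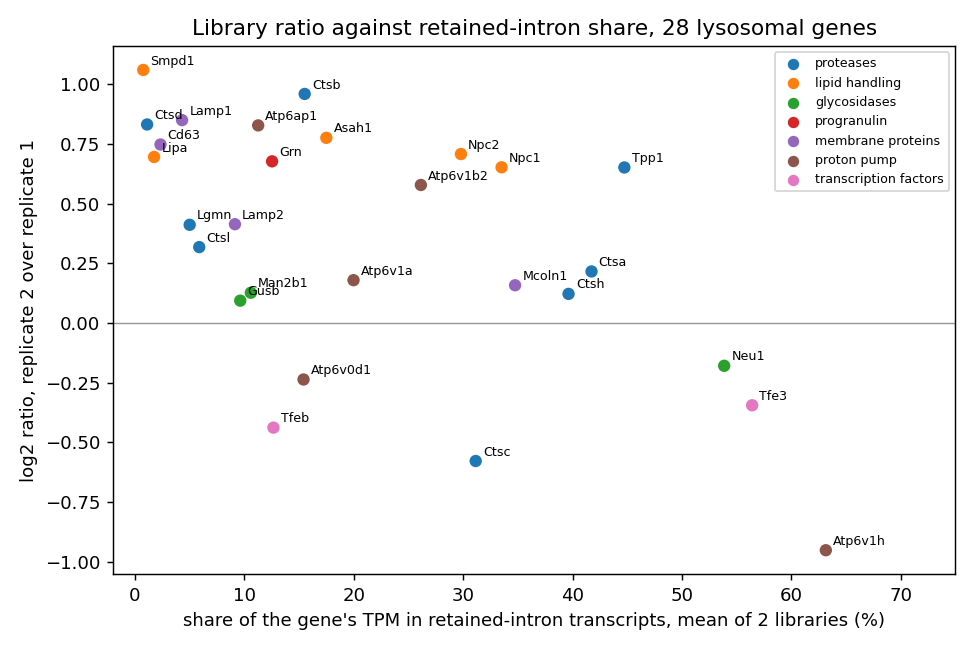
Log2 ratio of replicate 2 over replicate 1 (y axis, TMM-scaled counts) against the mean retained-intron share of the gene's TPM (x axis, percent) for 28 members, coloured by role. Atp6v1h, Tfe3 and Neu1 lie at the right with ratios of -0.95, -0.34 and -0.18, and Ctsd, Lamp1, Cd63 and Lipa at the left with ratios of 0.69 to 0.85.

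For most members 1 coding transcript led. Of the 35 members with at least 2 annotated transcripts, 3 had a main transcript that is not protein-coding by the mean of the libraries, where 15.4% of 9110 protein-coding genes did. These were Neu1 (Neu1-202, retained intron), Atp6v1h (Atp6v1h-208, retained intron, 25.96% and 22.3%) and Ctsh. The main Ctsh transcript, Ctsh-202, is annotated as a target of nonsense-mediated decay and held 33.2% and 51.4% of the gene's TPM, while coding transcripts of Ctsh held 18.1% in each. The main transcript differed between the libraries for 6 of the 35 (background 24.1%), which were Ctsd, Lgmn, Atp6v1h, Tfe3, Gaa and Tfeb. It differed between the first and the second transcript tables for 6 of the 35 (background 33.7%). In the second tables Atp6v0c (Atp6v0c-205, processed transcript) and Tfe3 (Tfe3-213, retained intron) also had a main transcript that is not protein-coding. A coding transcript led for 32 of the 37 members there, against 34 in the first tables. The share over all genes in the second tables is not given here.

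Lamp2 is known for 3 alternative last coding exons, and the tables resolved all of them. Lamp2-202 held 45.2% of the gene's TPM in replicate 1 and 48.0% in replicate 2, Lamp2-201 held 25.1% and 30.2%, and Lamp2-203 held 1.05% and 0.69%. The endings are those known as LAMP-2B, LAMP-2A and LAMP-2C in this order. LAMP-2A is the form known as the receptor of chaperone-mediated autophagy. The stretches are shown because they decide which membrane anchor and tail the protein gets. They are read from the GENCODE M21 transcripts (build GRCm38), with small letters for the last 15 shared coding bases and capitals for the bases of the form itself, to the end of the stop codon.
Lamp2-202: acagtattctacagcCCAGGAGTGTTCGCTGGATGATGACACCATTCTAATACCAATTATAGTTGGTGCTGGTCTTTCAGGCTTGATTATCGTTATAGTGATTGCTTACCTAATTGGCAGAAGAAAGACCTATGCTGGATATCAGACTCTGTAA
Lamp2-201: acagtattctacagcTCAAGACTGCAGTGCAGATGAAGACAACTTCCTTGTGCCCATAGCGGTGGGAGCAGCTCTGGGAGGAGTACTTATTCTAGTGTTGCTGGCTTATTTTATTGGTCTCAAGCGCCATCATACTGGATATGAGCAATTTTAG
Lamp2-203: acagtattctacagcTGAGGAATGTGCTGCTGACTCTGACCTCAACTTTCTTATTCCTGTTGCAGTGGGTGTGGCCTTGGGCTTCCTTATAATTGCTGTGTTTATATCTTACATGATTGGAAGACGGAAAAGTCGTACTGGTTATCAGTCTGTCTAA

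The capitals of Lamp2-202 lie at chrX:38421712-38421850, those of Lamp2-201 at chrX:38405432-38405570 and those of Lamp2-203 at chrX:38402139-38402280, all on the minus strand and all coding. In counts, Lamp2-202 had 4068 and 5526, Lamp2-201 had 1030 and 1601, and Lamp2-203 had 54.7 and 46.1. The order of the 3 forms was the same in both libraries and in the second transcript tables, where they had 27.98 and 32.9 TPM, 19.3 and 24.9 TPM, and 1.26 and 0.686 TPM.

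Psap was read mainly as 2 coding transcripts that begin differently. Psap-202 held 65.8% of the gene's TPM in replicate 1 and 48.4% in replicate 2, and Psap-203 held 31.4% and 47.6%. The coding sequences, of 1665 and 1656 bases, share their last 1625 bases and differ after the start codon, which is why the beginnings are shown, with capitals for the bases that differ.
Psap-202: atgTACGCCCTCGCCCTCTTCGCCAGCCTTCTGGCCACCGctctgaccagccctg
Psap-203: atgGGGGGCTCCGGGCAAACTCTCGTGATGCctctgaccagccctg

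The capitals lie at chr10:60277746-60277782 for Psap-202 and at chr10:60284504-60284531 for Psap-203, on the plus strand of GRCm38. In the second transcript tables Psap-202 had 947 and 922 TPM and Psap-203 had 426 and 819 TPM, with shares of 60.3% and 48.8% for Psap-202 and 27.2% and 43.3% for Psap-203. In both kinds of table the share of Psap-202 was lower and that of Psap-203 higher in replicate 2.

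Ctsd and Lgmn each had 2 coding transcripts whose order was exchanged between the libraries in the first tables. Ctsd-202 held 51.2% and 36.4% of the gene's TPM and Ctsd-201 held 46.9% and 63.2%. They differ by 18 coding bases, capitals below, that Ctsd-201 lacks.
Ctsd-202: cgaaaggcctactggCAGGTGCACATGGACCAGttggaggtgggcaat
Ctsd-201: cgaaaggcctactggttggaggtgggcaat

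The second tables gave Ctsd-202 the larger level in both libraries (358 and 441 TPM, against 116 and 302 TPM for Ctsd-201), so the exchange was not seen there. A gene on the same strand, Gm49369, shares 808 of the 2351 exonic bases of Ctsd and was given 5141 and 13145 counts, so that the split of reads between the 2 genes, and the level of Ctsd, is uncertain. Lgmn-202 held 36.2% and 64.2% and Lgmn-201 held 57.5% and 32.1%, with the same coding sequence of 1308 bases. The exchange was seen in the second tables as well, with 57.7 and 126 TPM for Lgmn-202 and 135 and 97.5 TPM for Lgmn-201.

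Other members had a large share in a transcript with a short coding sequence, with none, or other than the main one. The main Ctsc transcript, Ctsc-203, with 47.6% and 51.2% of the gene's TPM, has an annotated coding sequence of 414 bases, against 1389 bases for Ctsc-201, which held 16.6% and 21.2%. Atp6v0c-205, a processed transcript with no annotated coding sequence, held 45.1% of Atp6v0c in replicate 1 and 23.9% in replicate 2, and Gusb-206, annotated as a target of nonsense-mediated decay, held 37.6% and 17.4% of Gusb. Grn-203, a coding transcript, held 22.9% and 3.06% of Grn. In the first tables these last 3 shares were lower in replicate 2. The second tables gave 32.1% and 19.2% for Gusb-206 and 15.7% and 2.88% for Grn-203, but 52.3% and 52.9% for Atp6v0c-205, so the difference for Atp6v0c-205 was not seen there. Shares of this kind rest on how the counting program divides reads that several transcripts share.

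**Figure D5:**
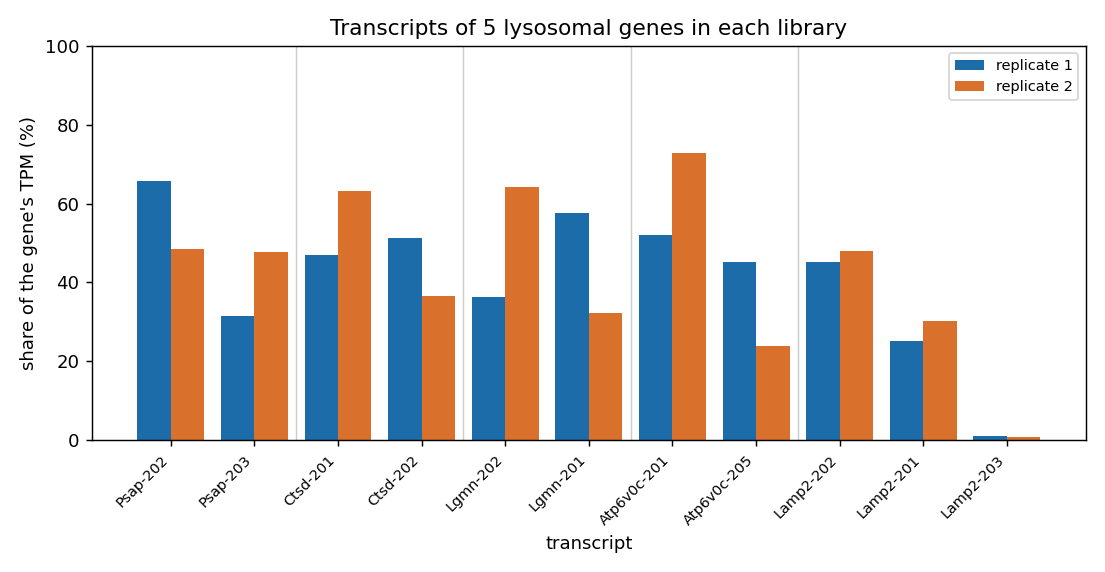
Share of the gene's TPM, in percent from 0 to 100, of 11 transcripts of 5 members, with blue bars for replicate 1 and orange bars for replicate 2. The order of the 3 Lamp2 forms is the same in both libraries, while Ctsd and Lgmn exchange their leading transcript.

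Reads of some members can overlap those of a neighbour. On the opposite strand, 9 members share exonic bases with another gene, and whether counting used strand is not known here. The largest such neighbour was Pltp beside Ctsa, with 495 shared of 4715 exonic bases and 4713 and 5328 counts, so the level of Ctsa is uncertain to that extent. On the same strand, Ctsd, Ctsl and Glb1 share bases with Gm49369, Gm49230 (0 counts in both) and Tmppe (166 and 231 counts). The processed copies Atp6v0c-ps2, with 5.51 and 12.2 counts, and Cd63-ps, with 7 and 33.97 counts, took few reads beside Atp6v0c and Cd63.

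Lysosomal genes outside the 37 were read from separate lists. Of 18 other pump subunits, 12 were detected, and of the 11 that averaged 50 counts or more 1 was more than 2-fold higher in replicate 2 and 0 lower, with a median log2 ratio of -0.12. Tcirg1, for the a3 subunit of lysosomes, was the highest of them at 740 and 367 TPM, above every pump member, and Atp6v0b and Atp6v0a1 had 350 and 185.5 TPM and 295 and 154 TPM. Atp6v1f, at 11.1 and 20.1 TPM, was the one beyond 2-fold (1.22). The subunit forms Atp6v0a4, Atp6v1e2 and Atp6v1g3 were at 0 counts in both gene tables, while the second tables gave Atp6v1g3 6 and 22 estimated counts.

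Of 30 other hydrolase genes, 26 were detected, and 3 of 27 were more than 2-fold higher and 1 lower, with a median log2 ratio of 0.36. Scpep1, for a serine carboxypeptidase, had 92.5 and 91.3 TPM, and Galc, for galactosylceramidase, had 72.6 and 57.3 TPM. Beyond 2-fold were Gm2a (744 and 1804 counts, 1.34), Ids (243 and 552 counts, 1.25) and Aga (73 and 153 counts, 1.13), and on the lower side Acp5 (93.97 and 15 counts, -2.58). All 20 other membrane protein genes were detected, and 2 of 20 were more than 2-fold higher and 0 lower, with a median of 0.36. Laptm5, for a lysosomal protein of blood cells, was the highest with 187 and 323 TPM (1.21), Cd68 had 158 and 220 TPM, Tpcn2 had 141 and 58.3 TPM, and Laptm4b was beyond 2-fold at 30 and 81 counts (log2 ratio 1.498). The medians of these 2 lists were near the members' 0.41, and no test of the difference was made.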

How the data were processed

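RNA of 2 libraries of 1 group was read from 3 deposited tables per library. Per the file headers, the deposited gene tables give expected counts and TPM, the deposited first transcript tables add the percent of each gene that its transcripts hold, and the deposited second transcript tables give estimated counts and TPM. The tables are on mm10 with GENCODE M21, per the text files deposited with them. The aligner, the counter and the use of strand were not given in the sources used here, and RSEM and kallisto write columns of these names.

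Features without a gene name, 1.19% and 0.213% of the counts, stayed out of the library sizes used for scaling. They are part of the library totals and of the percentages of each library given above. Expected counts were rounded and scaled by TMM (edgeR 4.0.16, R 4.3.3). Ratios used genes that averaged 50 counts or more, with exact binomial 95% intervals of the 2 counts, and DESeq2 1.42.0 gave other size factors. The scaling was tested on simulated data with 200 changed genes. Intervals take in counting error alone, as reads that carry no molecular identifier need not come from separate molecules. No conditions were compared, and no p-value was computed. Promoters and coding stretches were read with Python 3.11.15, the coding sequences from the GENCODE M21 transcripts. Proteins were not used here.

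The members and lists were chosen with earlier results of these data known. Values were printed for every member, and of each other list for the 3 highest genes by mean TPM and any gene beyond 2-fold. A gene within this rule is not reported here. Members were named in full as the 5 highest and lowest by TPM, the 5 most positive and most negative ratios, the 5 highest retained-intron shares and 4 pairs (Atp6v0d1 and Atp6v0d2, Tfeb and Tfe3, Lamp1 and Lamp2, Npc1 and Npc2). The genes of opposite or shared strands, the transcripts shown and the genes at the low end of the retained-intron share were picked after their values were seen.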

Additional observations from a re-analysis of the deposited data

How the results depend on the processing

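All 37 members were detected in both libraries, also at a TPM limit of 0.1, in the second transcript tables and in each library alone, and 36 at a limit of 5 TPM. The median level was 65.0 TPM in the second tables and 109 to 124 TPM in the single libraries. The number of members more than 2-fold higher in replicate 2 was 1, but 0 with DESeq2 size factors from all genes, 0 by the ratio of TPM and 2 in the second tables (Smpd1 and Ctsb), and 14 at a limit of 1.5-fold. The number more than 2-fold lower was 0, but 1 with those DESeq2 factors (Atp6v1h, -1.02), 2 by the ratio of TPM (Atp6v1h, -1.51, and Ctsc, -1.07) and 1 at 1.5-fold. The shares of all genes past 2-fold under these other settings are not given here, so these counts have no background beside them. By the ratio of TPM the median of all genes was itself -0.44. The median log2 ratio was 0.35 with DESeq2 factors from all genes and 0.0502 by the ratio of TPM. The median retained-intron share was 7.83% as a share of counts (13.6% over protein-coding genes), 22.6% in the second tables (31.0%) and 13.2 to 15.4% in the single libraries. TPM in the second tables was lower for most members, at a median of 0.493 of the gene-table value, from 0.415 for Cd63 to 1.24 for Tfeb. The causes were not tested. No paired analysis was possible because there is 1 group. With 2 libraries, a member's spread rests on 1 difference, and the low counts of Smpd1 limit its ratio most.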

Other observations

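The genes that bring enzymes to lysosomes stood below the members in level. All 14 genes of this list, among them those for sorting receptors and tethering proteins, were detected. Their median was 23.8 TPM, against 127 TPM for the members and 8.0 TPM for detected protein-coding genes. Beyond 2-fold were 0 of 14 in either direction, and the median log2 ratio was 0.04. Rab7, the small GTPase of late endosomes, had 56.4 and 60.7 TPM, the mannose 6-phosphate receptor gene M6pr had 43.7 and 49.1 TPM, and Vps41, of the HOPS tether, had 42.6 and 26.5 TPM.

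Of 26 genes that control TFEB and TFE3 or act in autophagy, 24 were detected, and of 22 at a mean of at least 50 counts 1 was more than 2-fold higher in replicate 2 and 1 lower, with a median log2 ratio of -0.15. Sqstm1, for the autophagy receptor p62, had 736 and 457 TPM, and Fnip2, for a partner of folliculin, had 242 and 186 TPM. Tfec, a relative of Tfeb and Tfe3 known from macrophages, had 112 and 38.1 TPM (log2 ratio -1.54) and was above both of them within each library. Gabarapl1, of the ATG8 family, had 9.22 and 16.8 TPM (log2 ratio 1.01).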
